A study of Mus musculus with 2 samples.

Results

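CXCL5 inflammatory fibroblasts are collagen-producing cells of the injured limb that carry high levels of Cxcl5, which encodes a chemokine that attracts neutrophils. They were chosen by a rule on single-cell counts. A barcode needed 500 or more detected genes, at most 10% mitochondrial UMIs (unique molecular identifiers, 1 per captured RNA molecule), and 50 or more UMIs of Col1a1, Col1a2 and Col3a1 together per 10000 UMIs of the cell. It could hold at most 1 UMI of the leukocyte gene Ptprc, at most 2 of the endothelial genes Pecam1 and Cdh5 together, and less than 10 per 10000 of the tendon genes Tnmd, Thbs4 and Chad. Of the 1817 injured cells that passed this fibroblast gate, 262 (14.4%, exact 95% interval 12.8 to 16.1%) had Cxcl5 at 5 or more UMIs per 10000 and are called CXCL5 fibroblasts here. The other 1555 are the comparison set. The 262 cells made up 2.80% of the 9366 injured cells kept, and the whole series held 14126 kept cells.

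The series consists of 2 droplet single-cell RNA libraries, 1 per condition, from soft tissue behind the tibia that the labels call Achilles tendon. Mice of both sexes, 8 to 12 weeks old, had a burn with tenotomy, and the design text says that tissue was taken 7 days later from the injured limb and from the uninjured limb on the other side. The uninjured library is labelled burn with tenotomy as well. Both libraries came from mice with CreERT2 at Hoxa11 (Hoxa11 wt/CreERT2), a Cre-dependent rtTA at R26 (R26 wt/LSL-rtTA) and TetO-Vegfd, labelled Vegfd-OE, in which recombined cells of the Hoxa11 lineage can switch on a Vegfd transgene. The uninjured cells carry the same alleles. Control mice of the study were not analysed here. The design text gives 5 mice per group, but not how many entered a library. With 1 library per condition there is no test, and no p-value is given. All intervals cover counting error only and not the variation between mice.

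Fibroblasts near a wound answer interleukin-1, tumour necrosis factor and related cytokines by secreting chemokines. CXC chemokines with an ELR motif, such as CXCL1, CXCL2 and CXCL5, act on the receptor CXCR2 of neutrophils, while CCL2 and CCL7 act mainly on CCR2 of monocytes. The same cytokines drive acute phase proteins such as SAA3 and pentraxin 3 through NF-kB and C/EBP transcription factors.

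Cxcl5 lies on chromosome 5 (mm10, chr5:90759360-90761624, plus strand). Its level chose the cells, so it is described without a test. A CXCL5 fibroblast held between 1 and 1016 Cxcl5 UMIs, with a median of 84. Per 10000 UMIs of the cell, the lowest was 5.00, the median 16.7 and the highest 131.1. The 10 values just above the threshold ran from 5.00 to 5.48, and the 10 just below from 4.99 down to 4.67. Within 1 unit of the threshold there were 27 cells above and 21 below, so it cuts a continuous range. Depth entered the choice, because 12 of the 262 cells qualified with 3 or fewer Cxcl5 UMIs. CXCL5 fibroblasts were deep cells, with a median of 57417 UMIs against 34940 in the other injured fibroblasts, and 22 of them held under 5000 UMIs.

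Cxcl5 was concentrated in these few cells. They held 32998 of the 50116 Cxcl5 UMIs of all kept injured cells (65.8%), and their top 26 cells alone held 35.9% of that sum. Summed over each set and scaled to 1000000 UMIs (CPM), Cxcl5 stood at 2185 CPM in CXCL5 fibroblasts, at 43.0 CPM in the other injured fibroblasts and at 0.19 CPM (3 UMIs) in the 863 gated fibroblasts of the uninjured library. None of those 863 reached the threshold, which at 3 counts of the total allows a share of up to 0.348%, and 2 of them held any Cxcl5 UMI. Among other injured cells, Cxcl5 reached 159 CPM in 559 cells with 2 or more Ptprc UMIs outside the neutrophil-like and phagocyte-like gates. This gate had no collagen limit, so it can include collagen-producing cells, and 12 of its cells were at the threshold. The 1377 cells outside every gate had Cxcl5 at 129 CPM, 10.5% of the Cxcl5 UMIs and 42 cells at the threshold. Cxcl5 reached 74.7 CPM in endothelial cells, 50.1 CPM in phagocyte-like cells and 4.54 CPM in neutrophil-like cells. Shares of cells with a UMI are given after thinning to 5000 UMIs, which leaves out shallower cells and keeps 240 of the 262 CXCL5 fibroblasts, 1383 of the 1555 others, 1459 of 1570 endothelial and 2705 of 2915 phagocyte-like cells. At this depth 10.3% of the other fibroblasts, 3.43% of endothelial cells and 2.74% of phagocyte-like cells held a Cxcl5 UMI. Without thinning these shares were 27.8%, 10.1% and 6.17%. The last is over 2902 phagocyte-like cells, because the 2915 also count cells that pass the fibroblast gate. The 2 libraries shared 19 barcodes, of which 1 was a CXCL5 fibroblast in the injured library.

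CXCL5 fibroblasts were unevenly spread over cells of male and female type. Cells were sorted by whether they held UMIs of Xist, which is transcribed from the inactive X chromosome of females, or of the Y-linked genes Ddx3y, Uty, Eif2s3y and Kdm5d. Of 658 gated injured fibroblasts with Y-linked UMIs and no Xist, 176 were CXCL5 fibroblasts (26.7%, 23.4 to 30.3%). Of 796 with Xist and no Y-linked UMI, 29 were (3.64%, 2.45 to 5.19%). A further 44 held both and 13 neither. Among cells with 1 kind only, Y-linked cells made up 85.9% of CXCL5 fibroblasts and 38.6% of the other injured fibroblasts. They made up 82.5% of such neutrophil-like cells, 48.7% of phagocyte-like cells and 44.2% of endothelial cells. The median depth was 57417 UMIs in CXCL5 fibroblasts and 4073 in neutrophil-like cells, of which 35.8% held neither kind. The part of depth in these shares was not tested. The Cxcl5 level also differed inside the set, with a median of 19.1 per 10000 in the 176 Y-linked cells and 7.06 in the 29 Xist cells. Sex and mouse cannot be told apart, because the mice behind each library are not given. For this reason many of the differences below are also given within Xist cells (29 against 767) and within Y-linked cells (176 against 482).

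**Figure D1:**
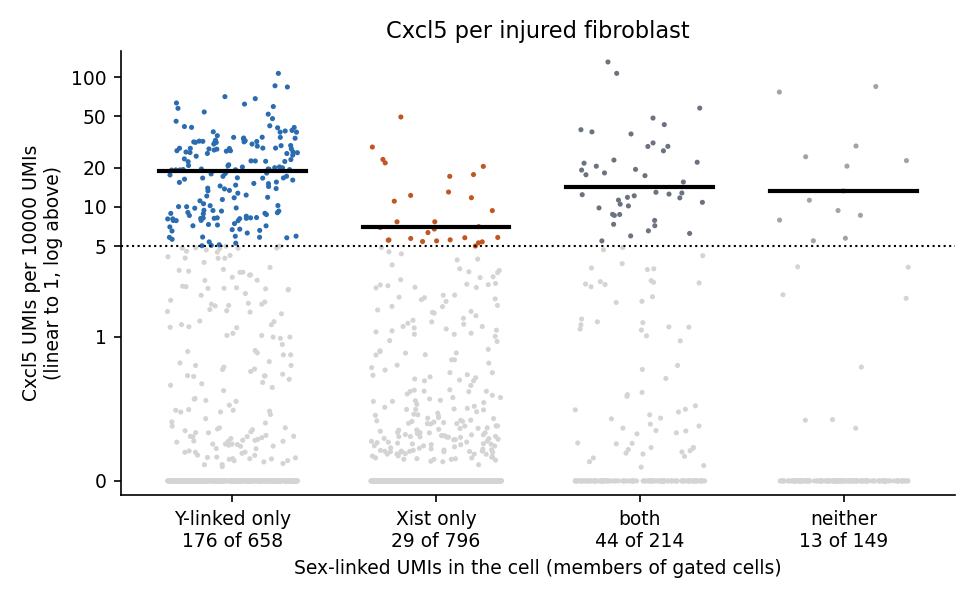
Cxcl5 UMIs per 10000 UMIs in each of the 1817 gated injured fibroblasts (linear axis to 1, log above), by the sex-linked UMIs of the cell. Coloured or dark points are CXCL5 fibroblasts, light grey points the others, bars the medians of CXCL5 fibroblasts, and the dotted line the threshold of 5. Y-linked cells hold 176 of the 262 cells above it and have the highest median, 19.1.

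The label names Saa3, Ccl2 and Ccl7 as markers, and all 3 were higher in CXCL5 fibroblasts when cells of both sexes were pooled. Saa3, an acute phase apolipoprotein, stood at 219 CPM against 97.4 CPM in the other injured fibroblasts (2.25-fold, 2.16 to 2.35) and had 0 UMIs in uninjured fibroblasts. Ccl2 stood at 322 against 118 CPM (2.73-fold, 2.63 to 2.84) and at 22.8 CPM in uninjured fibroblasts. Ccl7 stood at 375 against 144 CPM (2.61-fold, 2.53 to 2.70) and at 36.8 CPM in uninjured fibroblasts. Within Xist and Y-linked cells the log2 ratios were smaller, at 0.80 and 0.60 for Saa3, 0.94 and 0.80 for Ccl2, and 1.13 and 1.09 for Ccl7. In the 29 Xist cells a single cell gave 59.0% of the Saa3 UMIs and 51.5% of the Ccl2 UMIs. The markers were not in every cell. At 5000 UMIs, 61.7% of CXCL5 fibroblasts held a Ccl7 UMI, 51.7% a Ccl2 UMI and 32.9% a Saa3 UMI, against 27.5%, 17.9% and 7.74% of the others. In phagocyte-like cells these shares were 23.5%, 27.9% and 2.99%. All 3 markers together were found in 14.6% of CXCL5 fibroblasts (10.4 to 19.7%) and in 1.23% of the others (0.718 to 1.96%), and none of the 3 in 19.2% and 59.9%.

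The 8 fibroblast markers, among them Col1a1, Pdgfra, Dcn and Thy1, all lay within 2-fold of the other fibroblasts. Col1a1, Col1a2 and Col3a1 are among the 8 and were part of the gate that both sets passed, so their levels are a description only. Col1a1 stood at 12829 CPM against 18648 CPM. Markers of other cells were sparse in CXCL5 fibroblasts. The 8 mural cell markers summed to 117 CPM against 903 CPM in the other fibroblasts, the 10 phagocyte markers to 104 against 196 CPM, the 8 keratinocyte markers to 53.1 against 383 CPM and the 4 haemoglobin genes to 15.7 against 194 CPM. None of these markers was at 0 in CXCL5 fibroblasts. Cells with mural, Schwann, keratinocyte or muscle markers made up 2.67% of CXCL5 fibroblasts and 19.2% of the comparison set. Their part in the genes lower in CXCL5 fibroblasts is given beside those genes.

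Clusters of the gated injured cells, made without Cxcl5 and without sex-linked genes, placed most CXCL5 fibroblasts together at the main setting only. Of 12 clusters, cluster 6 held 172 of the 262 (65.6%), and they were 62.5% of its 275 cells. Its leading genes after Cxcl5 were Prg4, Crabp2, Tnfsf11, Spp1 and Il1rl1. It held 193 Y-linked and 19 Xist cells. Of the 29 Xist CXCL5 fibroblasts, 4 lay in cluster 6 and 12 in cluster 5, which was led by C1qtnf3, Kcnip4 and Pdzrn4. Cluster 9, led by histone and mitosis genes, held 36 CXCL5 fibroblasts. At other clustering settings, among them a change of seed alone, the fullest cluster held between 38.9 and 43.9% of the CXCL5 fibroblasts. The clusters come from the same cells and describe them only.

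Over 9168 genes at 10 CPM or more in either set, 129 (1.41%) were more than 2-fold higher in CXCL5 fibroblasts and 486 (5.3%) more than 2-fold lower (6.71% either way), with 5 CPM added to both levels. Counts of higher or lower list genes below use this rule and are read beside these shares. The median log2 ratio over all genes was 0.03. Of these calls, 30 of the 129 higher and 167 of the 486 lower were past 2-fold in the same direction in both Xist and Y-linked cells. Among the named genes, which stand at 50 CPM or more in either set, Spp1, Il1rl1, Crabp2 and Tnfsf11 had the highest ratios and Clec3b, Pi16 and Tnxb the lowest.

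**Figure D2:**
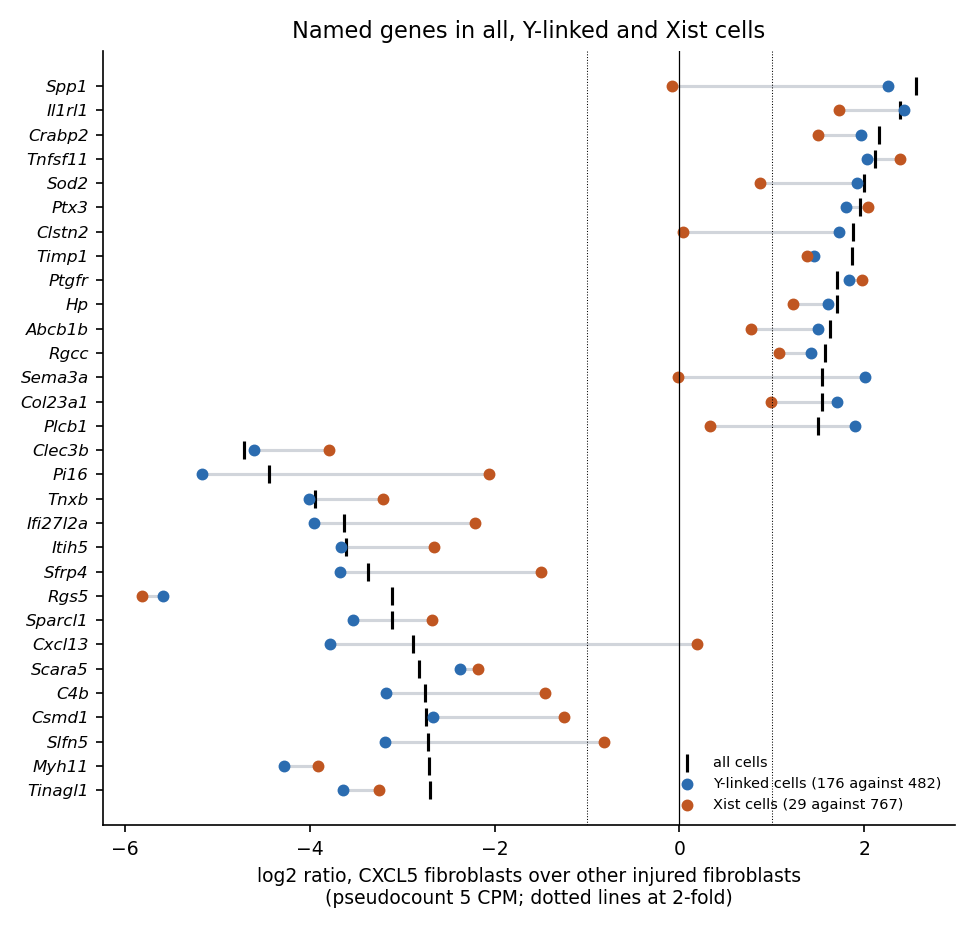
Log2 ratio of CXCL5 fibroblasts over other injured fibroblasts for the 15 highest and 15 lowest named genes, in all cells (black ticks), Y-linked cells (blue, 176 against 482) and Xist cells (orange, 29 against 767). Tnfsf11, Ptx3, Timp1, Ptgfr and Hp are past 2-fold in both kinds of cell, while Spp1, Clstn2 and Sema3a lie near 0 in Xist cells.

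Among the neutrophil-attracting CXC chemokines other than Cxcl5, 4 genes were measured, 2 were higher and none lower, with a median log2 ratio of 0.97. The median was -0.11 in Xist cells and 0.86 in Y-linked cells. Cxcl3 was at 31.4 CPM against 1.98 CPM (15.9-fold, 12.9 to 19.7) and had 0 UMIs in uninjured fibroblasts. It came from few cells, since 5.83% of CXCL5 fibroblasts and 0.506% of the others held a UMI at 5000 UMIs, and in Xist cells all 24 UMIs came from 1 cell. Neutrophil-like cells had Cxcl3 at 489 CPM. Cxcl1 was at 367 CPM against 179.9 CPM and at 105 CPM in uninjured fibroblasts. Its log2 ratio was 0.75 in Y-linked cells and -0.26 in Xist cells. Cxcl2, at 58.2 against 27.9 CPM, had log2 ratios of 0.96 in Y-linked and 0.04 in Xist cells. Ppbp was under 10 CPM in both sets, with 105 UMIs against 20. Pf4, a platelet and macrophage chemokine of the same list that lacks the ELR motif, was at 12.6 against 25.6 CPM.

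Cxcl1, Cxcl2, Cxcl3, Ppbp and Pf4 are neighbours of Cxcl5 on chromosome 5. Within 500 kb of the Cxcl5 start the annotation has 8 other measured genes, of which 4 were more than 2-fold higher and none lower. This window was chosen after the values were seen. Besides Cxcl3 and Cxcl1 these were Ereg, 315 kb away, and the antisense transcript Gm19610, which overlaps it and may share its reads. Ereg encodes epiregulin, a ligand of the epidermal growth factor receptor. It stood at 44.9 CPM against 2.01 CPM (22.3-fold, 18.2 to 27.5) and at 0.38 CPM in uninjured fibroblasts. Its log2 ratio was 2.79 in Y-linked cells and 0.88 in Xist cells, where it had 7 UMIs. Ankrd17 and Mthfd2l, in the same window, had log2 ratios of 0.12 and 0.35.

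The promoters of Cxcl1, Cxcl2, Cxcl3 and Sod2 are shown because each holds a match to the NF-kB consensus, given in capitals. They are the 250 bases before the gene start, 5′ to 3′, from RefSeq (GRCm38.p6).

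Cxcl1 promoter, chr5:90890995-90891244, plus strand: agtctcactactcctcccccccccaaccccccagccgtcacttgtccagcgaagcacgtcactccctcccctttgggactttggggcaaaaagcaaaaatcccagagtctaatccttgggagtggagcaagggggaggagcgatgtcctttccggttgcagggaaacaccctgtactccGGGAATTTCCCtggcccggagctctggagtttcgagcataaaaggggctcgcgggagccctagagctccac

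Cxcl2 promoter, chr5:90903649-90903898, plus strand: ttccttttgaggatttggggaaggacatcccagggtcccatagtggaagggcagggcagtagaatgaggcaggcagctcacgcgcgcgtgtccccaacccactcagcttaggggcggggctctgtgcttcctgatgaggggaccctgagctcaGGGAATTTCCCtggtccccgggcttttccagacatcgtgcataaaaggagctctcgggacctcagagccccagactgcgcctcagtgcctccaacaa

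Cxcl3 promoter, chr5:90785851-90786100, plus strand: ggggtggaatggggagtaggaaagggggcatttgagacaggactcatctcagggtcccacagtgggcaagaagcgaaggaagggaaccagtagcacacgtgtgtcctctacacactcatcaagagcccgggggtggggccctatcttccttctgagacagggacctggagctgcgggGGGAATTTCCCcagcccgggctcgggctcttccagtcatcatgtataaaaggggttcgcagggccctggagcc

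Sod2 promoter, chr17:13007589-13007838, plus strand: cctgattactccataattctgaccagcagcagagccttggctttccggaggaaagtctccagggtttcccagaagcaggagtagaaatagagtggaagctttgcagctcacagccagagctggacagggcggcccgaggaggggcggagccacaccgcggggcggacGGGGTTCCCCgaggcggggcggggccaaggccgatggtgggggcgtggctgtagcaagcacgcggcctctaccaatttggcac

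In Cxcl1, Cxcl2 and Cxcl3 the capitals cover a pair of overlapping matches on opposite strands, GGGAATTTCC and GGAATTTCCC, 1 base apart. They begin 71, 97 and 73 bases before the start. In Sod2 the match GGGGTTCCCC begins 83 bases before it. Of the 17 genes looked up, 12 were in the table, and 4 of these held the NF-kB consensus. Over all 27025 promoters of this length 3.75% hold it on either strand. The 17 are label markers, neighbours of Cxcl5 or genes higher in CXCL5 fibroblasts, not a random draw from all promoters. Cxcl1, Cxcl2 and Cxcl3 are neighbours with the same match, so the 4 are not separate cases. The C/EBP motif TTGCNNAA was found in Saa3, Ptx3, Il1rl1 and Slpi, against 9.55% of all promoters, and the AP-1 motif TGANTCA in Ppbp, against 6.87%. A match describes the sequence only. Cxcl5, Ccl2, Ccl7, Ereg and Hp were not among the 12.

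Of 7 CC chemokines measured, 4 were higher (Ccl2, Ccl7, Ccl9 and Ccl20) and 3 lower (Ccl8, Ccl11 and Ccl19), so the family split. Ccl20, which attracts cells with CCR6, was at 11.1 CPM against 1.08 CPM, with a log2 ratio of 1.67 in Y-linked and 0.24 in Xist cells. Ccl9 was at 21.1 against 7.56 CPM and past 2-fold in neither kind of cell, with log2 ratios of 0.20 in Xist and 0.90 in Y-linked cells. Ccl11, the eosinophil chemokine eotaxin, was 4.63-fold lower (4.14 to 5.19), at 21.9 against 102 CPM. Uninjured fibroblasts had Ccl11 at 397 CPM, and the injured fibroblasts chosen by Pi16 and Clec3b, described below, had it at 201 CPM. Ccl8 was 3.42-fold lower, at 24.5 against 83.9 CPM. Within Xist cells the log2 ratios of Ccl8 and Ccl11 were -0.34 and -0.28, against -1.62 and -2.73 in Y-linked cells.

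Of 7 other CXC and CX3C chemokines measured, none was higher and 4 were lower. Cxcl13, which attracts B cells, was at 2.78 against 52.4 CPM, and Cxcl10, an interferon-induced ligand of CXCR3, at 11.1 against 30.6 CPM. Cxcl12, which holds cells with CXCR4 in tissue, was within 2-fold at 1088 against 691 CPM. Cxcl14 was level at 482 against 484 CPM. Cxcl10 had log2 ratios of -2.01 in Xist and -1.35 in Y-linked cells, while those of Cxcl13 were 0.19 and -3.78.

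The acute phase and antimicrobial list had 9 measured genes, 4 higher and 1 lower, with a median log2 ratio of 0.94. Ptx3, a soluble pattern recognition protein, stood at 533 CPM and in the other injured fibroblasts at 134 CPM, a ratio of 3.99 (3.87 to 4.12). Uninjured fibroblasts had 40.3 CPM. Slpi, an inhibitor of neutrophil elastase, had 326 against 85.8 CPM, a ratio of 3.80 (3.65 to 3.95), and 17 UMIs in uninjured fibroblasts. For Hp, the haemoglobin scavenger haptoglobin, the levels were 337 and 99.7 CPM, a ratio of 3.38 (3.25 to 3.51). All 3 were past 2-fold in both kinds of cell, with log2 ratios in Xist and Y-linked cells of 2.04 and 1.81 for Ptx3, 2.27 and 2.58 for Slpi, and 1.23 and 1.61 for Hp. Il1rn, the interleukin-1 receptor antagonist, stayed just under 2-fold on the pooled scale (log2 ratio 0.94) and was past it within each kind, at 1.30 and 1.15. Lbp, the lipopolysaccharide-binding protein, was 5.93-fold lower (5.54 to 6.34), at 59.7 against 354 CPM. Its log2 ratio was -2.89 in Y-linked cells and -0.47 in Xist cells, where it was within 2-fold.

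**Figure D3:**
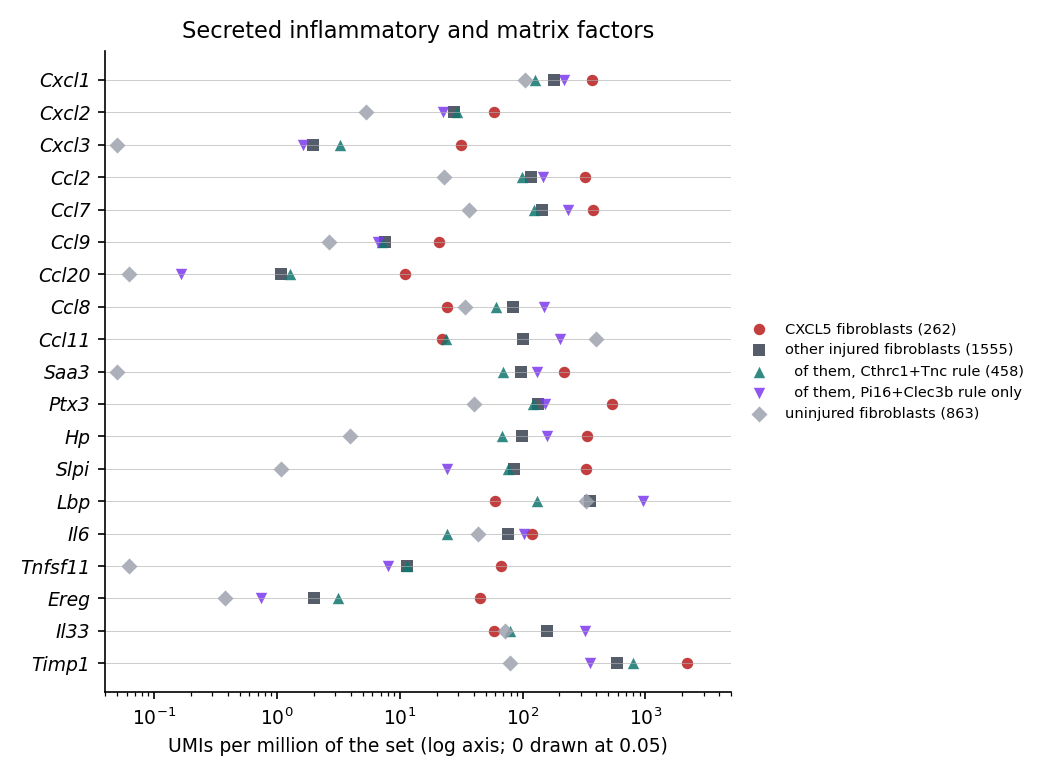
Levels of 19 secreted factors, in CPM of each cell set (log axis, 0 drawn at 0.05), in CXCL5 fibroblasts, other injured fibroblasts, those of them chosen by Cthrc1 and Tnc or by Pi16 and Clec3b alone, and uninjured fibroblasts. Ptx3, Hp, Slpi, Tnfsf11, Ereg and Timp1 are highest in CXCL5 fibroblasts, while Lbp, Il33 and Ccl8 are highest in cells of the Pi16 and Clec3b rule.

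Of 10 measured cytokines and growth factors that act on leukocytes, 3 were higher (Il11, Tnfsf11 and Ereg) and 2 lower (Il33 and Il34). Tnfsf11 encodes RANKL, the ligand that drives osteoclast formation. It stood at 66.9 CPM against 11.55 CPM (5.79-fold, 5.24 to 6.40), with 1 UMI in all uninjured fibroblasts. At 5000 UMIs 24.6% of CXCL5 fibroblasts and 4.56% of the others held a Tnfsf11 UMI. Its log2 ratio was 2.39 in Xist cells and 2.03 in Y-linked cells. The decoy receptor of RANKL, Tnfrsf11b, was at 7.09 CPM in both sets. Its receptor Tnfrsf11a was highest in phagocyte-like cells, at 73.3 CPM. Il6 was within 2-fold, at 119.7 against 76.9 CPM. Csf3, the granulocyte growth factor, was under 10 CPM in both sets, with 77 UMIs against 16. Il33 was 2.71-fold lower, with log2 ratios of -0.33 in Xist and -1.40 in Y-linked cells. Il34, a ligand of the CSF1 receptor, was 4.55-fold lower, with -1.88 and -1.72. Il11 was past 2-fold in neither kind, at -0.11 and 0.93.

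Genes of inflammatory signalling followed. Of 16 measured NF-kB components and targets, Sod2 was higher and Icam1 lower. Sod2, the mitochondrial superoxide dismutase, was at 311 against 74.2 CPM (4.19-fold, 4.02 to 4.37), with log2 ratios of 1.92 in Y-linked and 0.87 in Xist cells. Nfkbia, the NF-kB inhibitor, was level at 246 against 239.9 CPM. Of 10 genes of the STAT3 and C/EBP list, Cebpb (367 against 171 CPM) and the interleukin-4 receptor chain Il4ra (161 against 57.8 CPM) were higher and none was lower. Il4ra was past 2-fold in both kinds of cell, with log2 ratios of 1.64 in Xist and 1.30 in Y-linked cells, and Cebpb in neither, with 0.96 and 0.89. Of 16 receptors of inflammatory cytokines, Il1rl1 was higher and none was lower. Il1rl1 encodes ST2, the receptor of interleukin-33. It was at 199 against 34.1 CPM (5.84-fold, 5.52 to 6.19) and at 0.76 CPM in uninjured fibroblasts. Its log2 ratios were 1.73 in Xist and 2.43 in Y-linked cells. In the 29 Xist CXCL5 fibroblasts 1 cell gave 46.3% of the 108 Il1rl1 UMIs, and 10 cells held any. Il1r1, the interleukin-1 receptor, was within 2-fold at 512 against 301 CPM, and at 5000 UMIs 85.8% of CXCL5 fibroblasts and 59.9% of the others held a UMI of it. In the prostaglandin list, 2 of 9 measured genes were higher. Ptgfr, the prostaglandin F receptor, was at 73.4 against 19.0 CPM with log2 ratios of 1.97 and 1.84 in Xist and Y-linked cells. Ptgs2, which encodes cyclooxygenase-2, was at 130.2 against 45.6 CPM, with 1.15 in Y-linked and -0.58 in Xist cells.

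**Figure D4:**
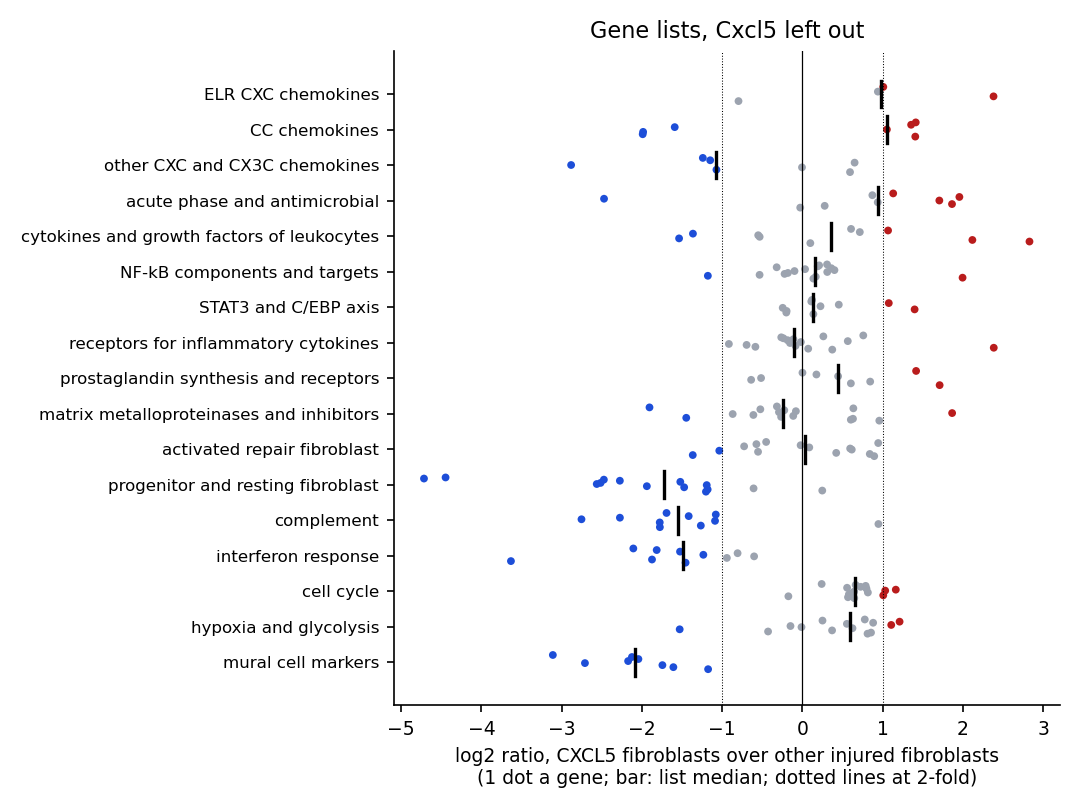
Log2 ratio of CXCL5 fibroblasts over other injured fibroblasts for each measured gene of 17 lists, with list medians as bars and dotted lines at 2-fold. The progenitor, complement, interferon and mural lists lie mostly left of -1, and the acute phase list has 4 genes right of 1.

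Matrix genes showed a mixed picture. Timp1, an inhibitor of matrix metalloproteinases, was the 1 gene higher among 16 of its list, at 2161 against 589 CPM (3.67-fold, 3.61 to 3.73), with log2 ratios of 1.38 in Xist and 1.46 in Y-linked cells. It was at 79.4 CPM in uninjured fibroblasts. Mmp3 was 3.97-fold lower pooled but had log2 ratios of 0.30 in Xist and -2.89 in Y-linked cells. Spp1, which encodes the secreted phosphoprotein osteopontin, was the highest named gene, at 867 against 143 CPM (6.08-fold, 5.91 to 6.25). Its log2 ratio was 2.26 in Y-linked cells and -0.08 in Xist cells. Phagocyte-like cells had Spp1 at 1003 CPM. The shares of cells with an Spp1 UMI at 5000 UMIs were 45.4% of CXCL5 fibroblasts, 14.1% of the others, 10.1% of endothelial and 39.9% of phagocyte-like cells. Among 17 fibrillar matrix genes none was higher and Col14a1 and Eln were lower.

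Many CXCL5 fibroblasts met the rule used here for repair fibroblasts, Cthrc1 and Tnc together at 20 or more UMIs per 10000. Of the 262, 58.4% (52.2 to 64.4%) met that rule, against 29.5% (27.2 to 31.8%) of the others. Within the rule only tenascin-C (Tnc) was higher than in the other fibroblasts, at 1844 against 955 CPM. Cthrc1 was at 809 against 1107 CPM and Postn at 3051 against 4540 CPM. Of the 14 genes of the repair list none was higher, and Aspn and Fap were lower. In Xist and Y-linked cells the log2 ratios were -0.57 and -0.86 for Aspn and -0.83 and -1.10 for Fap. In the 458 other fibroblasts that met the rule, Tnc was at 2110 CPM, Cthrc1 at 1949 CPM and Postn at 6825 CPM. Set against those 458 cells, 136 of 8873 genes tested were more than 2-fold higher and 194 more than 2-fold lower in CXCL5 fibroblasts. This comparison was not split by sex-linked UMIs. Sod2 (log2 ratio 2.33), Hp (2.22), Spp1 (2.15), Tnfsf11 (2.12) and Ptx3 (2.09) headed the genes at 50 CPM or more, followed by Il6 (2.09), which stood at 24.2 CPM in the repair cells. Saa3, Ccl2 and Ccl7 were 3.18-fold, 3.25-fold and 3.03-fold higher. The lowest at 50 CPM or more were Clec3b (log2 ratio -3.58), Pamr1 (-3.26), Pi16 (-3.20) and C1qtnf3 (-2.86). Scx, a transcription factor of tendon cells, was also lower, at 14.97 against 85.1 CPM.

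Progenitor genes were mostly lower. Of 14 progenitor and resting fibroblast genes 12 were lower and none higher, with a median log2 ratio of -1.73. Pi16, a marker of adventitial fibroblasts, stood at 13.2 against 393 CPM (29.7-fold lower, 25.8 to 34.3). Clec3b, which encodes tetranectin, stood at 10.4 against 400 CPM (38.4-fold lower, 32.8 to 45.2). Uninjured fibroblasts had 587 CPM of Pi16 and 1397 CPM of Clec3b. Of the 14, 10 were past 2-fold lower in Xist cells, 12 in Y-linked cells and 9 in both, with Pi16 at -2.06 in Xist and -5.17 in Y-linked cells and Clec3b at -3.80 in Xist and -4.61 in Y-linked cells. Only 1 CXCL5 fibroblast (0.382%) met a rule of Pi16 and Clec3b at 10 or more per 10000, which 25.02% of the other injured fibroblasts met. The 338 other fibroblasts that met it and not the Cthrc1 and Tnc rule had Saa3 at 131 CPM, Ccl2 at 147 CPM and Ccl7 at 234 CPM, so these 3 were present there too. Cluster 3, with Pi16 and Dpp4 among its leading genes, held 284 cells, of which 6 were CXCL5 fibroblasts. It had more Saa3 than cluster 6 (339 against 234 CPM) and less Ccl2 (130 against 376 CPM).

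Complement and interferon genes were lower as well. Of 10 genes in the complement list 9 were lower, with a median log2 ratio of -1.55. One of the 9, C1qtnf3, is a C1q-related secreted protein and not a complement component. C3 was at 84.6 against 428 CPM and C4b at 16.8 against 142 CPM. Of 10 measured interferon response genes 7 were lower, with a median of -1.49, among them Isg15 (7.95 against 50.8 CPM) and Bst2 (32.8 against 133 CPM). These differences were present mainly in Y-linked cells. The list medians there were -1.74 for complement and -1.87 for interferon genes, against -0.45 and -0.44 in Xist cells, and C4b alone among the complement genes and Ifi27l2a alone among the interferon genes were past 2-fold lower in both. The difference between the kinds of cell was not tested. Against the Cthrc1 and Tnc cells, C3 and Cfb were level, at 83.1 and 95.5 CPM there and 84.6 and 97.2 CPM in CXCL5 fibroblasts. C4b and Ifi27l2a stayed lower, at 46.3 and 113.9 CPM there and 16.8 and 16.4 CPM in CXCL5 fibroblasts.

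Mural genes were lower in full, 8 of 8. Rgs5, a pericyte gene, was at 57.5 against 535 CPM, Myh11 at 8.74 against 84.9 CPM. The comparison set held 248 cells (15.9%) with mural markers and CXCL5 fibroblasts 3. Of the 869 Rgs5 UMIs of CXCL5 fibroblasts, 788 lay in the 44 cells with both Xist and Y-linked UMIs, and 11 of those 44 had any. Without cells carrying mural, Schwann, keratinocyte or muscle markers, 401 genes were more than 2-fold lower, of which 363 were among the 486.

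Cell cycle and glycolysis genes tended to the higher side. Of 16 cell cycle genes 3 were higher (Tyms, Rrm2 and Hmgb2), none was lower, and the median was 0.66. In Y-linked cells the median was 0.68 and in Xist cells -0.30. The cells of cluster 9 had the highest median depth of the 12 clusters, 72076 UMIs, and the part of depth in this list was not tested. Of 14 measured hypoxia and glycolysis genes Pgk1 and Eno1 were higher and Adm lower, with a median of 0.59. Pgk1 was at 265 against 111 CPM, and Eno1 had a log2 ratio of 1.11. In Xist and Y-linked cells the log2 ratios were 0.40 and 1.12 for Pgk1 and 1.07 and 0.97 for Eno1. Hif1a, the oxygen-regulated transcription factor, was at 709 against 402 CPM and at 80.8 CPM in uninjured fibroblasts.

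Vegfd, the gene the transgene carries, was 2.27-fold lower (2.15 to 2.40) in CXCL5 fibroblasts, at 91.2 against 207 CPM, and at 79.4 CPM in uninjured fibroblasts. Whether these UMIs come from the transgene or the endogenous gene cannot be told apart in the counts. Vegfd was at 61.0 against 145 CPM in Y-linked cells and at 457 against 245 CPM in Xist cells, where 1 cell gave 32.4% of its UMIs. Vegfa and Vegfc were within 2-fold, at 43.7 against 26.6 CPM and 27.5 against 18.8 CPM. Hoxa11, whose locus drives the Cre, was at 12.2 against 14.6 CPM.

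CXCL5 fibroblasts differed among themselves. In 4 bins of rising Cxcl5, of 66, 66, 65 and 65 cells, Ccl2 was at 147, 299, 375 and 459 CPM, and Sod2 at 202, 271, 342 and 421 CPM. Ccl7 followed at 264, 370, 403 and 458 CPM. Il6 was at 82.1, 67.0, 133 and 191 CPM. Saa3 had no such order, at 217, 134, 184 and 335 CPM, and Hp was flat at 363, 286, 351 and 346 CPM. Postn was at 3647 CPM in the lowest bin and 2482 CPM in the highest. Over the 262 cells Spearman's rho with Cxcl5 per 10000 was 0.40 for Sod2, 0.29 for Ccl2, 0.20 for Ccl7 and 0.10 for Saa3. These values share the cell's depth and the bins use the value that chose the cells. Y-linked cells made up 59.1% of the lowest bin and 75.4% of the highest.

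The receptors of these ligands lay on other cells of the injured library. Cxcr2 stood at 914 CPM in neutrophil-like cells, which held 87.3% of its UMIs, and at 0.26 CPM in CXCL5 fibroblasts. Ccr2 stood at 299 CPM in phagocyte-like cells, which held 90.4% of its UMIs, and at 0.73 CPM in CXCL5 fibroblasts. The scavenger receptor Ackr1 was highest in endothelial cells, at 125 CPM. Of the upstream cytokines looked up, Il1b, Tnf, Osm and Il17a were highest in leukocytes, but Il6 was not. Il6 was highest in CXCL5 fibroblasts, at 119.7 CPM. It was at 79.5 CPM in endothelial, 10.2 CPM in phagocyte-like and 2.65 CPM in neutrophil-like cells. Il1b was at 8746 CPM in neutrophil-like and 699 CPM in phagocyte-like cells, and at 5.43 CPM in CXCL5 fibroblasts. Tnf was at 238 and 122 CPM in those gates and Osm at 153 and 58.0 CPM. Il17a was at 4.67 CPM in cells with 2 or more Ptprc UMIs outside both gates and had 0 UMIs in CXCL5 fibroblasts. Neutrophil-like cells exceeded CXCL5 fibroblasts in Cxcl2, at 9638 against 58.2 CPM.

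**Figure D5:**
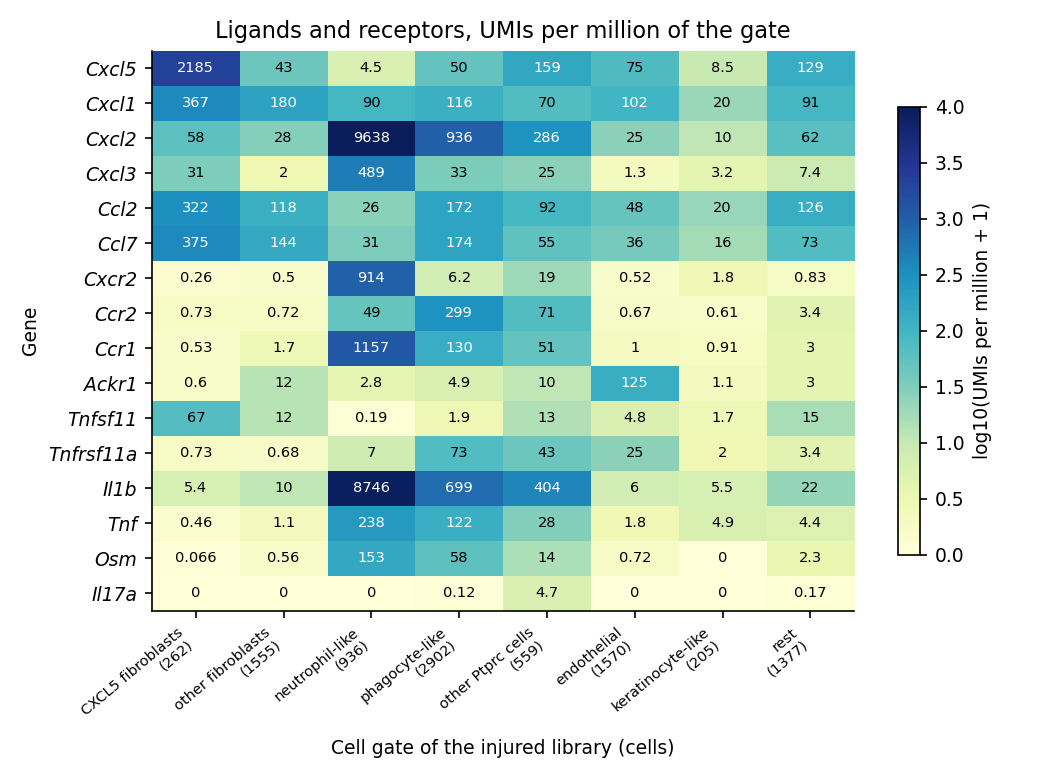
CPM of 16 ligands and receptors in 8 cell gates of the injured library, with the colour on a log10 scale. Cxcl5 is highest in CXCL5 fibroblasts at 2185 CPM, while Cxcr2 and Il1b are highest in neutrophil-like cells and Ccr2 in phagocyte-like cells.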

How the data were processed

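Single-cell 3' RNA was counted in 1 injured and 1 uninjured library. The deposited values are raw UMI counts per gene and barcode, made by the authors with Cell Ranger 5.0.1 on mm10, per the submitters' processing notes. The labels name no annotation release. Library totals were 253050820 UMIs over 10691 injured barcodes and 101685524 over 6850 uninjured ones.

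Counts were summed over each cell set and scaled to 1000000 (CPM) in Python 3.11.15. Ratios used a pseudocount of 5 CPM and genes at 10 CPM or more. A 2-fold difference was used to call genes, since 1 library per group allows no test. Shares carry Clopper-Pearson, sums Poisson and ratios conditional exact 95% intervals. PCR copies were collapsed by UMI by the authors' counting, and intervals cover counting error only. The sums were tested on simulated data. Shares of cells with a UMI were taken after thinning to 5000 UMIs. Leiden clusters (scanpy 1.11.5, resolution 0.5, seed 1) used 2000 variable genes. Neutrophil-like cells had S100a8 and S100a9 at 100 or more per 10000, phagocyte-like cells Ptprc and 20 or more of 5 myeloid genes, endothelial cells 3 or more UMIs of Pecam1 and Cdh5. No doublets were removed, because Scrublet's automatic threshold marked 1 cell. Both Xist and Y-linked UMIs were held by 11.1% of kept injured cells and 16.8% of CXCL5 fibroblasts. How many of these are doublets was not tested. A score above 0.2, set after seeing the data, marked 202 of 9366 injured cells and 1 CXCL5 fibroblast. Free RNA was not removed.

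Named genes were the 15 highest and 15 lowest by log2 ratio at 50 CPM or more, without Cxcl5, gate, mitochondrial, ribosomal, haemoglobin, immunoglobulin, sex-linked and unnamed genes and genes under 0.2 of their level in another gate, and any list gene. The cells and lists were chosen with earlier results of these data known. Some results are not reported here.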

Additional observations from a re-analysis of the deposited data

Results flagged for a closer look

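In 6 genes at 50 CPM or more the log2 ratio of CXCL5 fibroblasts over other injured fibroblasts pointed in opposite directions in Y-linked and in Xist cells, by 1.5-fold or more each way. Genes that differed in sign by less than this in either kind, such as Spp1 and Mmp3, are given with the processing alternatives below. The ratio was -1.19 in Y-linked and 0.88 in Xist cells for Vegfd, and -5.14 and 0.86 for Eln, which encodes elastin. It was 0.74 and -2.14 for Top2a, 0.90 and -1.36 for Cdk1, and 0.72 and -1.21 for Ube2c, all genes of dividing cells. It was 0.69 and -1.27 for Inhba, an activin subunit. The difference between the kinds of cell was not tested. The Xist values rest on 29 cells, and counts were small, with 13 UMIs each for Top2a and Cdk1 and 16 each for Ube2c and Inhba. For Eln, 1 of the 29 cells gave 47.9% of the UMIs, and the median per cell was 0.25 per 10000 in Xist CXCL5 fibroblasts against 1.24 in other Xist fibroblasts. In Y-linked cells the medians were 0 and 1.45.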

How the results depend on the processing

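No paired analysis was possible because each condition has 1 library. The share of gated cells called CXCL5 fibroblasts was 18.8, 9.74 and 5.83% at thresholds of 2, 10 and 20 per 10000, 16.2% at a collagen sum of 100, 16.9% without cells carrying other markers, 3.64% in Xist cells, 26.7% in Y-linked cells and 31.2% in Y-linked cells without other markers. The number of genes called higher was 233 against cells with 0 Cxcl5 UMIs, 212 after thinning, 200 and 46 at pseudocounts of 1 and 20 CPM, 75 at 50 CPM or more, and 569 and 21 at 1.5-fold and 3-fold. The number called lower was 194 against Cthrc1 and Tnc cells, 212 at a pseudocount of 20 CPM, 209 at 50 CPM or more, and 987 and 195 at 1.5-fold and 3-fold. The share in the fullest cluster was 43.9 and 39.7% at resolutions of 0.3 and 0.8 and 38.9% with another seed. Counting any Cxcl5 UMI, injured exceeded uninjured by 38.02 percentage points instead of 14.4.

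Named and list genes, and list medians, that were past 2-fold in all cells turned direction as follows, and the cause was not tested. Values within 2-fold in all cells are not counted, although some of these changed sign as well, among them in Xist cells the medians of the neutrophil-attracting CXC (-0.11), leukocyte cytokine (-0.22), osteoclast regulator (-0.016) and cell cycle (-0.30) lists. Xist cells alone gave log2 ratios of 0.17 for the median of the other CXC list, -0.083 for Spp1, -0.016 for Sema3a, 0.19 for Cxcl13, -0.26 for Cxcl1, -0.11 for Il11, -0.58 for Ptgs2, 0.88 for Vegfd, 0.087 for Irf7, 0.10 for Oasl2, 0.30 for Mmp3, 0.86 for Eln, -0.35 for Rrm2, -0.087 for Hmgb2 and -1.27 for Inhba. Against Cthrc1 and Tnc cells they were 0.46 for the other CXC median, 0.99 for Rgs5, 0.46 for Cxcl13, 0.74 for Csmd1, 0.26 for Tinagl1, 0.070 for Ccl19, 0.0060 for Il34, 0.024 for C3, 0.025 for Cfb and 0.062 for Bmp5. Tinagl1 was 0.20 without cells carrying other markers and 0.083 in Y-linked cells without them. The comparisons with Cthrc1 and Tnc cells, with cells of 0 Cxcl5 UMIs, without cells holding both sex-linked kinds and with Y-linked cells lacking other markers were chosen after seeing the data. Of 6344 values for 244 genes over all settings, 25 turned direction in genes past 2-fold in all cells. The 6344 include genes within 2-fold, which could not be counted, and settings that leave the ratio as it was. The 25 are therefore no measure of stability. Of the other values, 3132 lay inside the counting interval of the ratio in all cells and 3187 outside it. That interval was taken without the pseudocount, so some values lay outside it without any change. Over all genes tested, 23 of the 129 higher and 28 of the 486 lower calls had the opposite sign in Xist cells, and 58 of the 486 against Cthrc1 and Tnc cells.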

Other observations

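Genes of other lists were also measured. The BMP target Id3 stood at 120.4 against 257 CPM, with log2 ratios of -0.48 in Xist and -1.20 in Y-linked cells. Of 8 measured tendon genes, 4 were lower (Scx, Fmod, Comp and Cilp), and Scx and Cilp were past 2-fold in both kinds of cell. All 7 measured positional Hox genes lay within 2-fold.

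Several of the named genes are not known mainly as inflammatory genes. Crabp2, a carrier of retinoic acid, stood at 206 against 42.4 CPM, with log2 ratios of 1.502 in Xist and 1.97 in Y-linked cells. Rgcc, a regulator of the cell cycle, stood at 190.2 against 60.3 CPM, with 1.07 and 1.43. Sema3a, a guidance protein of axons that also acts on bone cells, stood at 55.3 against 15.6 CPM, with -0.02 and 2.01.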
